A study of Mus musculus with 8 samples.

Results

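Aminoacyl-tRNA synthetases are the enzymes that join each amino acid to its tRNA. The set described here holds 36 genes, 20 for cytosolic enzymes and 16 for mitochondrial enzymes, among the 20719 gene symbols measured. The members were taken from a fixed list of names, and a name ending in 2 marked the mitochondrial group. All 36 names were found on the array, each read through its brightest probe set. The cells were ATCL7, a line of immortalized adrenocortical tumour cells from a male mouse, and mRNA was read on arrays. Cells of 8 samples were kept for 24 h in medium with 0.025% each of fetal bovine and horse serum. In 4 samples the medium held 0.5 µM BIO (6-bromoindirubin-3'-oxime), and in the other 4 it held 0.01% DMSO as vehicle. The titles join the samples into 4 numbered pairs of 1 BIO and 1 vehicle array. BIO blocks the kinase GSK3, which otherwise leads to loss of β-catenin, the effector of Wnt signalling, and this signalling is the subject of the series. All samples come from 1 line, and no label tells whether the pairs were grown apart. The p-values therefore reflect the spread among these arrays, part or all of which may be technical.

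Most proteins are made in the cytosol, where most amino acids have their own synthetase, while glutamate and proline share that encoded by Eprs. Several of the cytosolic enzymes are held together in a multisynthetase complex. Mitochondria make a small set of respiratory chain subunits on ribosomes of their own, with synthetases that are mostly encoded by separate nuclear genes and imported. Kars and Gars are exceptions, since each encodes both the cytosolic and the mitochondrial form. Shortage of amino acids or stress in the endoplasmic reticulum leads to phosphorylation of the initiation factor eIF2, which lowers general translation and raises production of the transcription factor ATF4. Known ATF4 target genes include those of amino acid transport, amino acid synthesis and many cytosolic synthetases.

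ATF4 binds together with C/EBP proteins at composite elements with the core TGATGNAA, so the promoter windows of the members were read for this core. The windows are those of RefSeq on build GRCm38.p6, 250 bases before to 50 bases after a gene's start. Windows were held for 27 of the 36 members, 13 cytosolic and 14 mitochondrial. Those of Cars, Hars, Lars, Nars, Rars, Vars, Wars, Hars2 and Pars2 were not analysed here. On either strand, the core stood in the windows of 5 of the 13 cytosolic genes (Aars, Gars, Iars, Tars and Yars) and in 0 of the 14 mitochondrial genes. Among all genes with a window 4.51% held it, and 3.97% of all 32851 windows. The core was the only motif searched, and it was picked with earlier results of these data known. A match is a stretch of letters, not a shown binding site. The 60 bases around each match are shown on the gene's strand, 5′ to 3′, because they let the matches be compared, with the core or its reverse TTNCATCA in capitals:
Aars, match upstream (chr8:111033704-111033763, + strand): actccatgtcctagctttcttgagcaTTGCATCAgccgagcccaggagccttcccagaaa
Aars, match after the start (chr8:111033825-111033884, + strand): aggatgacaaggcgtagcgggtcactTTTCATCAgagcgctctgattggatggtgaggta
Gars (chr6:55037945-55038004, + strand): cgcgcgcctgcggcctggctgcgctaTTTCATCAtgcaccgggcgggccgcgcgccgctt
Iars (chr13:49682111-49682170, + strand): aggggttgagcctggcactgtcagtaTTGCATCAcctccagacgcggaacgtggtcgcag
Tars (chr15:11399640-11399699, - strand): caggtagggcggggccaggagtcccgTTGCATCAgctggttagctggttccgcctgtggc
Yars (chr4:129189880-129189939, + strand): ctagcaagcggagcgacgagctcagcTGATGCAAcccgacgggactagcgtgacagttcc

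The capitals spell the same 8 letters, read on either strand, in Iars, Tars, Yars and the upstream match of Aars. The match began 112 bases before the start of Aars, 30 before that of Gars and 15 before that of Tars. It began at base 10 after the start for the other match of Aars, at base 8 for Iars and at base 4 for Yars. Of the 9 cytosolic genes with a window whose mRNA rose with BIO, 5 held the core, while all 11 mitochondrial genes that rose had a window without it. The absence of these letters from a window of this length says nothing about ATF4 at those genes.

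With BIO, mRNAs of most cytosolic synthetases and of many mitochondrial synthetases rose, by small amounts. Of the 20 cytosolic genes 15 rose, 0 fell and 5 did not pass, where a gene passed at a limma adjusted p under 0.05 in a fit with the pair as a block. Of the 16 mitochondrial genes 11 rose, 1 fell (Sars2) and 4 did not pass. Over all symbols 17.0% rose and 15.6% fell, and among the brighter 50% of symbols, which include all 36 members, 28.0% rose and 23.9% fell, and 32.7% of all symbols passed in either direction. The median log2 change was 0.41 for the cytosolic genes, 0.18 for the mitochondrial genes and −0.01 over all symbols. The largest rise in the set was 1.74-fold, and 5 cytosolic genes and 1 mitochondrial gene rose at least 1.5-fold, against 2.19% of all symbols. All 4 BIO arrays read above all 4 vehicle arrays for 15 cytosolic and 8 mitochondrial genes, against 14.1% of all symbols, and below them for 1 mitochondrial gene, against 12.9%. BIO was the higher array in 4 of 4 pairs for 17 cytosolic and 11 mitochondrial genes, against 23.4%. For the 1.5-fold, array and pair counts, the share among the brighter 50% of symbols was not taken and may be higher.

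The counts of rises held for the cytosolic genes and were less stable for the mitochondrial genes. Without the pair block 15 cytosolic and 8 mitochondrial genes rose, against 13.0% of all symbols. With the lowest 50% of symbols left out, 15 and 11 rose, against 32.3% of those tested. By the authors' paired test, adjusted over all symbols, 13 and 8 rose, against 9.93%, and 0 fell, against 9.12%. For this test and the fit without the block, the share among the brighter 50% of symbols was not taken and may be higher. In the authors' deposited table of another experiment (Wnt against SF1 samples), 1 cytosolic and 3 mitochondrial genes had an unadjusted p under 0.05 with a ratio above 1, against 6.77%, and none had one below 1, against 6.12%.

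**Figure D1:**
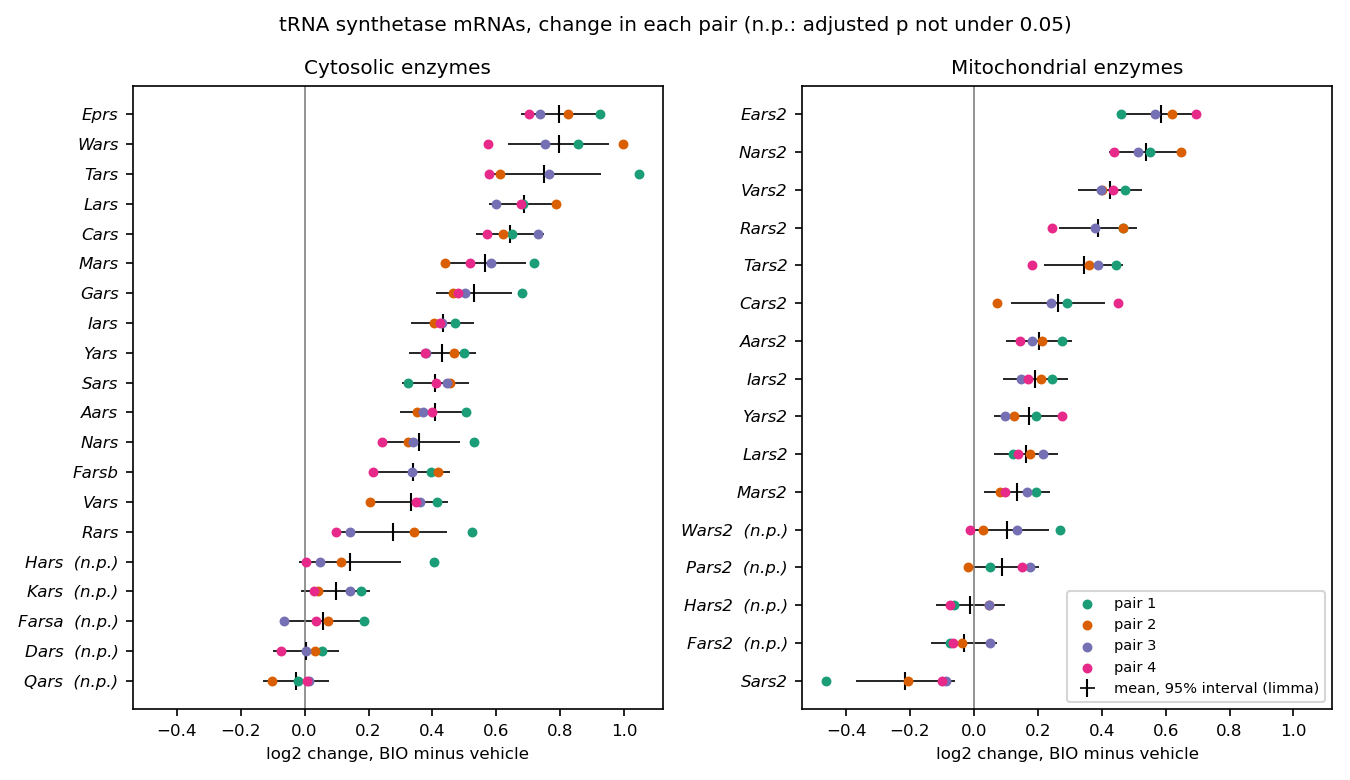
Log2 change (BIO minus vehicle, x axis) of each synthetase mRNA in pairs 1 to 4 (coloured points), with the mean and 95% interval of the limma fit (black). The cytosolic genes (left) run from Qars at −0.03 to Eprs at 0.80, the mitochondrial genes (right) from Sars2 at −0.21 to Ears2 at 0.59.

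The largest rise was that of Eprs, which encodes the bifunctional enzyme for glutamate and proline. In pairs 1 to 4 its log2 values were 10.49, 10.54, 10.46 and 10.44 in vehicle and 11.41, 11.36, 11.20 and 11.14 in BIO. The groups stood far apart, and the vehicle arrays spread by only 0.04 (SD, n = 4). The change was 0.80 ± 0.05 log2 (SE), 1.74-fold, with a limma adjusted p of 1.83e-05.

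Wars, the tryptophan enzyme, which is also known as an interferon-induced gene, read 10.03, 10.10, 9.86 and 10.04 in vehicle and 10.88, 11.10, 10.61 and 10.61 in BIO. Its BIO arrays spread more widely than its vehicle arrays, 0.24 against 0.10 (SD), without reaching the vehicle range. The change was 0.79 ± 0.07 log2 (SE, limma adjusted p = 6.91e-05). Tars, the threonine enzyme, read 9.54, 9.90, 9.67 and 9.67 in vehicle and 10.58, 10.51, 10.44 and 10.25 in BIO. Vehicle replicate 1 was the lowest and BIO replicate 1 the highest, so pair 1 gave the largest change, 1.05, against 0.58 to 0.76 in the other pairs. Over the pairs Tars rose 1.68-fold (0.75 ± 0.08, adjusted p = 0.000167).

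Lars, the leucine enzyme, also known as a leucine sensor for the growth kinase mTORC1, read 9.87, 9.94, 9.81 and 9.89 in vehicle and 10.55, 10.73, 10.41 and 10.57 in BIO. Its 4 changes lay between 0.60 and 0.79, with a mean of 0.69 ± 0.05 (SE, limma adjusted p = 2.68e-05). Cars, the cysteine enzyme, read 9.70, 9.74, 9.53 and 9.72 in vehicle and 10.35, 10.36, 10.26 and 10.30 in BIO. Vehicle replicate 3 stood below the other vehicle arrays, and the rise was 1.56-fold (0.64 ± 0.05, adjusted p = 3.11e-05). These 5 genes were the cytosolic ones past 1.5-fold.

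The next group rose by 1.45-fold to 1.48-fold. Mars, the methionine enzyme, whose product also charges the initiator tRNA, rose by 0.56 ± 0.06 log2 (SE) and Gars, the glycine enzyme, by 0.53 ± 0.05. A further 8 cytosolic genes rose by smaller amounts, from 0.28 to 0.43 log2. They were Iars, Yars, Sars, Aars, Nars, Farsb and Vars, the enzymes for isoleucine, tyrosine, serine, alanine, asparagine, phenylalanine (β subunit) and valine, and Rars for arginine, the lowest of them at 0.28 ± 0.07. Iars was the only member with more than 1 probe set, and the dimmer probe set rose by 0.51 ± 0.05 against 0.43 ± 0.04 for the one used.

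The rise of Rars differed between pairs. It read 11.32, 11.65, 11.54 and 11.64 in vehicle and 11.84, 11.99, 11.68 and 11.74 in BIO, so the groups were separated by only a narrow gap. The changes were 0.52, 0.34, 0.14 and 0.10 in pairs 1 to 4. Its limma adjusted p was 0.0196, and the call was lost without replicate 1 (0.0664), without replicate 2 (0.0692) and in the paired test of the authors (0.169).

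Dars, Farsa, Hars, Kars and Qars did not pass. Qars, the glutamine enzyme, read 10.66, 10.65, 10.64 and 10.67 in vehicle and 10.63, 10.55, 10.66 and 10.68 in BIO, a difference of −0.03 log2 with a 95% interval of −0.13 to 0.08. Dars, the aspartate enzyme, read 10.51, 10.47, 10.52 and 10.52 in vehicle and 10.56, 10.51, 10.53 and 10.45 in BIO. For both genes the groups overlapped, and the interval for Dars, −0.10 to 0.11, left out the rises of all 15 genes that passed. The sign of the Dars difference turned without replicate 1, without replicate 2 and with cyclic loess normalization.

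Kars, the lysine enzyme, differed by 0.10 log2 (95% interval −0.01 to 0.21) and Farsa, the α subunit of the phenylalanine enzyme, by 0.06 (−0.06 to 0.18). The β subunit gene Farsb, which serves the same enzyme, rose by 0.34 ± 0.05 (SE, limma adjusted p = 0.00115). Farsb read 10.13, 10.10, 9.97 and 10.16 in vehicle and 10.53, 10.52, 10.30 and 10.37 in BIO, with no overlap, while the groups of Farsa overlapped. Hars, the histidine enzyme, read 9.84, 10.23, 10.18 and 10.28 in vehicle and 10.25, 10.34, 10.23 and 10.29 in BIO. Its difference of 0.14 (−0.02 to 0.30) came mostly from pair 1, where vehicle was lowest.

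**Figure D2:**
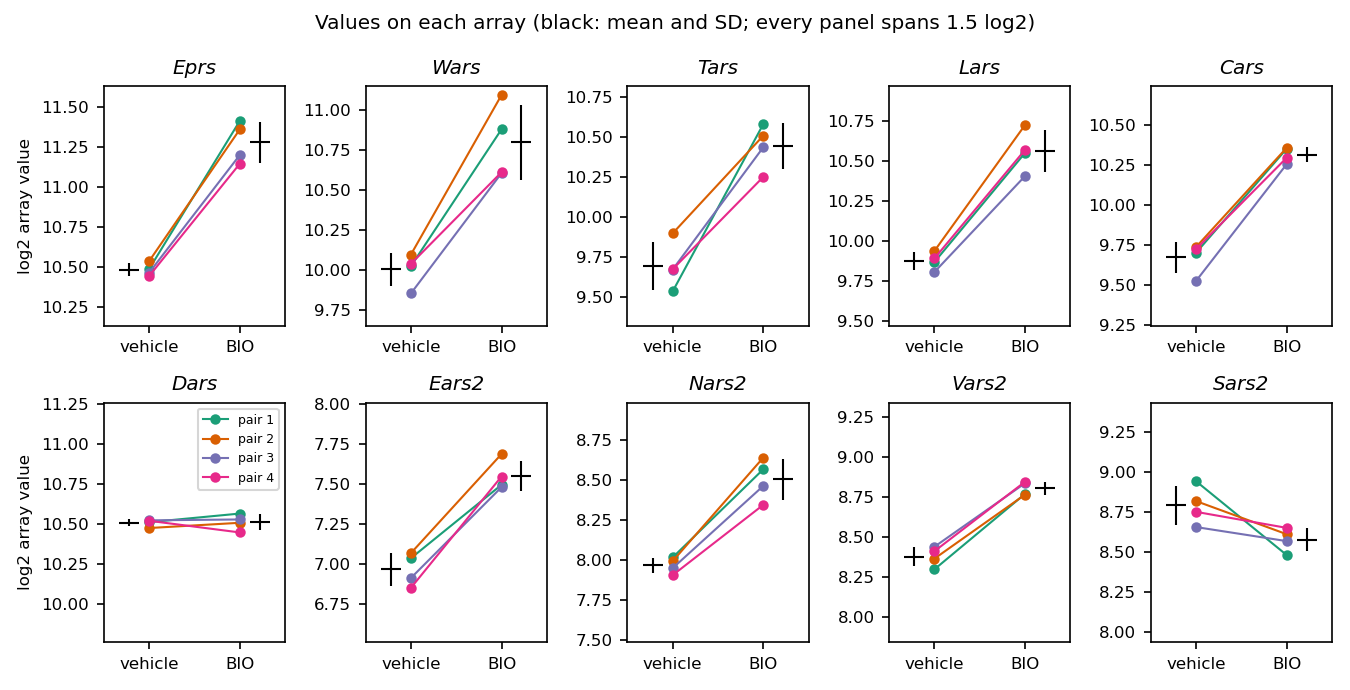
Log2 array values (y axis, each panel spanning 1.5 log2) of 10 synthetase genes in vehicle and BIO, with a line for each pair and the mean ± SD of 4 arrays in black. The 5 cytosolic genes with the largest rises and Ears2, Nars2 and Vars2 rose in all pairs, Dars overlapped between groups, and Sars2 was lower in BIO.

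The cytosolic enzymes fall into known structural classes and a known complex, which the choice of genes did not use. These assignments come from general knowledge and were added after the values were seen. Class I and class II synthetases have unrelated catalytic folds. Of the 9 class I genes 8 rose (all but Qars), with a median change of 0.43, and of the 10 class II genes 6 rose, with a median of 0.35. Eprs has a part of each class and is counted in neither. Of the 8 genes for enzymes of the multisynthetase complex, Eprs, Lars, Mars, Iars and Rars rose and Dars, Kars and Qars did not pass. Of the 12 cytosolic genes outside the complex 10 rose. Among the brighter 50% of symbols, which hold all these genes, 28.0% rose. Differences between the classes, or between genes in and outside the complex, were not tested.

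Of 3 genes for scaffold proteins of the complex 2 rose, against 28.0% of the brighter 50% of symbols, which hold all 3. Eef1e1, which encodes a small scaffold also known as AIMP3, rose by 0.28 ± 0.05 log2 (SE, limma adjusted p = 0.00284) and Aimp1 by 0.24 ± 0.05 (adjusted p = 0.00708). For both, the lowest BIO array read below the highest vehicle array, though BIO was higher within each pair. Aimp2 did not pass, with a difference of −0.03 and a 95% interval of −0.13 to 0.07.

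Among the mitochondrial enzymes Ears2, which charges glutamate, rose most. It read 7.03, 7.07, 6.91 and 6.85 in vehicle and 7.49, 7.69, 7.48 and 7.55 in BIO, with no overlap. The change was 0.59 ± 0.05 log2 (SE), 1.5-fold, with a limma adjusted p of 7.6e-05. Mitochondria have no tRNA synthetase of their own for glutamine. Ears2 also places glutamate on the glutamine tRNA, and the amidotransferase GatCAB turns it into glutamine. Of the subunit genes of GatCAB, Pet112l (the name used on the array for subunit B) rose by 0.76 ± 0.06 (adjusted p = 4.31e-05) and Gatc by 0.46 ± 0.05 (adjusted p = 0.000153). Qrsl1, which encodes subunit A, did not pass, with a difference of −0.08 and a 95% interval of −0.19 to 0.02.

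Nars2, the asparagine enzyme, read 8.02, 8.00, 7.95 and 7.91 in vehicle and 8.57, 8.64, 8.47 and 8.35 in BIO. It rose 1.45-fold, with no overlap (0.54 ± 0.05, SE, limma adjusted p = 9.31e-05). Vars2, the valine enzyme, read 8.30, 8.37, 8.44 and 8.41 in vehicle and 8.77, 8.77, 8.84 and 8.85 in BIO. Its changes lay between 0.40 and 0.47 in the 4 pairs, with a mean of 0.43 ± 0.04 (adjusted p = 0.000152). Rars2 for arginine rose by 0.39 ± 0.05 and Tars2 for threonine by 0.34 ± 0.05, both without overlap between the groups.

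The other mitochondrial genes that rose did so by 0.14 to 0.26 log2, and several of these calls were not stable. Aars2 for alanine (0.20 ± 0.04, SE) and Iars2 for isoleucine (0.19 ± 0.04) passed in all alternatives tried. Lars2 for leucine (0.16 ± 0.04) passed at a limma adjusted p of 0.0213 and Yars2 for tyrosine (0.17 ± 0.05) at 0.0253. Cars2 for cysteine (0.26 ± 0.06) passed at 0.013, with changes of 0.29, 0.07, 0.24 and 0.45 in pairs 1 to 4. Mars2 for methionine (0.14 ± 0.04) passed at 0.0499, just under the threshold. Without the pair block the calls of Yars2 (adjusted p = 0.397), Mars2 (0.0847) and Cars2 (0.0524) were lost. That of Lars2 was lost with cyclic loess normalization (0.0671) and without replicate 2 (0.0669), 3 (0.105) or 4 (0.0513).

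Sars2, the mitochondrial serine enzyme, was the only member that passed as lower in BIO. It read 8.94, 8.82, 8.66 and 8.75 in vehicle and 8.48, 8.61, 8.57 and 8.65 in BIO. The highest BIO value lay just under the lowest vehicle value, and the fall was steepest in pair 1 (−0.46, −0.21, −0.09 and −0.10 in pairs 1 to 4). The change was −0.21 ± 0.07 log2 (SE, limma adjusted p = 0.0412). The call was lost without replicate 1 (adjusted p = 0.113), 2 (0.0957) or 3 (0.0527) and in the paired test of the authors (0.209). Sars, the cytosolic serine enzyme, read 11.22, 11.14, 11.10 and 11.14 in vehicle and 11.55, 11.59, 11.55 and 11.55 in BIO. It rose by 0.41 ± 0.05 (adjusted p = 0.000256).

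Wars2, Pars2, Hars2 and Fars2, the mitochondrial enzymes for tryptophan, proline, histidine and phenylalanine, did not pass. Their differences were 0.11, 0.09, −0.01 and −0.03 log2, with 95% intervals from −0.03 to 0.24, −0.03 to 0.20, −0.12 to 0.10 and −0.14 to 0.07. The groups overlapped for all of them. The sign of the Hars2 difference turned without replicate 1 or 4. Hars2 and Hars, enzymes for the same amino acid, were thus both among the genes that did not pass.

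Cytosolic and mitochondrial enzymes for the same amino acid were then compared within pairs, as the difference of their log2 changes. Of 17 such comparisons, the cytosolic gene had the larger change in all 4 pairs in 13, the mitochondrial gene in 2, and the order varied between pairs in 2. The differences ran from −0.18 to 0.71 log2, with a median of 0.26. With 4 pairs the two-sided exact sign-flip test cannot give a p under 0.125, which those 15 comparisons reached, and the smallest Benjamini-Hochberg adjusted value over the 17 was 0.142, so none passed. The 17 comparisons are not independent, since all use the same 4 pairs of arrays and Eprs and Fars2 each enter 2 of them. How often pairs of other genes keep 1 order in all 4 pairs was not counted, so no background share stands beside the 13.

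The difference was largest for Eprs against Pars2, the mitochondrial proline enzyme, at 0.71 ± 0.18 log2 (SD, n = 4 pairs). It was 0.88, 0.84, 0.56 and 0.55 in pairs 1 to 4, on the same side of 0 each time. Against Ears2, which handles the other amino acid of Eprs, the difference was 0.21 ± 0.19 and ranged from 0.47 in pair 1 to 0.01 in pair 4. Tryptophan (Wars and Wars2) gave 0.69 ± 0.19, serine (Sars and Sars2) 0.62 ± 0.13 and leucine (Lars and Lars2) 0.52 ± 0.10. In each of these the cytosolic mRNA rose while the mitochondrial change was under 0.2 log2.

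Asparagine and valine went the other way. Nars rose by 0.36 and Nars2 by 0.54 log2, a difference of −0.18 ± 0.12 (SD, n = 4 pairs). The differences in pairs 1 to 4 were −0.02, −0.32, −0.18 and −0.20, so pair 1 was close to even. Vars rose by 0.33 and Vars2 by 0.43, a difference of −0.09 ± 0.07. For arginine the order varied, with Rars above Rars2 in pair 1 by 0.06 and below it in the other pairs.

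**Figure D3:**
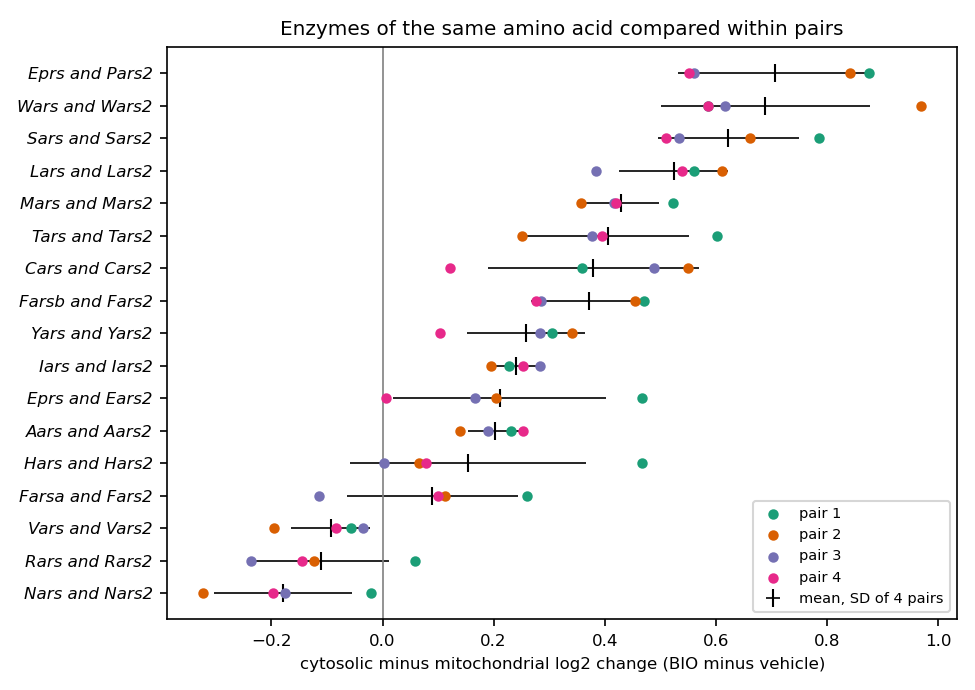
Difference between the log2 changes of cytosolic and mitochondrial enzymes for the same amino acid (x axis), in pairs 1 to 4 (coloured points) with the mean and SD of 4 pairs (black). It lies above 0 in all pairs for 13 of 17 comparisons and below 0 in all pairs for Nars against Nars2 and Vars against Vars2.

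The probe sets of the groups differed in brightness. Vehicle means ran from 9.25 to 11.54 log2 for the cytosolic genes and from 6.65 to 9.87 for the mitochondrial genes. Values of this normalization are compressed at low signal, so smaller changes of dimmer probe sets may be understated, and the part of this in the difference between the groups was not tested. Within the mitochondrial group the second dimmest gene in vehicle, Ears2 at 6.97 ± 0.10 (SD, n = 4), had the largest rise, and the brightest, Iars2 at 9.87 ± 0.05, rose by 0.19.

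The pairs differed in the size of the change. The median change of the cytosolic genes was 0.50, 0.41, 0.38 and 0.39 in pairs 1 to 4, and that of the mitochondrial genes was 0.26, 0.15, 0.18 and 0.16. Pair 1 thus gave the largest median in both groups. Its vehicle array was the lowest of the vehicle arrays for Hars (9.84), Rars (11.32), Nars (11.35) and Tars (9.54), among others. The same array was the highest of them for Sars (11.22), Sars2 (8.94), Nars2 (8.02), Rars2 (9.10) and Pars2 (6.72). The median over all symbols lay between −0.02 and 0.01 in each pair.

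Other genes that take part in charging or in guarding tRNA also rose in part. Of 13 such genes 7 rose, 0 fell and 6 did not pass, with a median change of 0.23 log2. Among the brighter 50% of symbols, which hold all 13, 28.0% rose and 23.9% fell. Dtd1, a deacylase that frees tRNA from D-amino acids, read 8.15, 7.98, 8.06 and 8.06 in vehicle and 8.94, 8.84, 8.90 and 8.95 in BIO, without overlap. It rose by 0.85 ± 0.04 (SE, limma adjusted p = 6.45e-06). Tarsl2, which encodes a second cytosolic threonine enzyme, rose by 0.63 ± 0.06, beside Tars at 0.75, and Aarsd1, an editing protein for mischarged alanine tRNA, by 0.49 ± 0.05. Mtfmt, which formylates the initiator methionine tRNA of mitochondria, rose by 0.23 ± 0.04. The selenocysteine genes Pstk and Sepsecs (0.15 and 0.11), the peptidyl-tRNA hydrolase gene Ptrh2 (0.09) and Prorsd1 (0.03) did not pass.

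Of 26 measured genes of tRNA processing, modification and export, 16 rose, 0 fell and 10 did not pass, with a median of 0.21 log2, where 28.0% of the brighter 50% of symbols, which hold all 26, rose. Xpot, the exporter that carries tRNA out of the nucleus, rose by 0.79 ± 0.06 (SE), Mettl1, which methylates a guanine of many tRNAs, by 0.71 ± 0.05, Adat1, an adenosine deaminase of alanine tRNA, by 0.69 ± 0.06, and Tsen15, a subunit of the splicing endonuclease, by 0.57 ± 0.07. The limma adjusted p of these genes was at most 0.000376.

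Genes of the ATF4 response were read beside the synthetases, and their part in the synthetase changes was not tested. Atf4 read 8.39, 8.46, 8.41 and 8.42 in vehicle and 9.15, 9.08, 8.999 and 8.84 in BIO. Its rise of 0.60 ± 0.06 log2 (SE, limma adjusted p = 0.000148) lay within the range of the synthetases, and BIO was clear of vehicle. Atf5, a related factor (1.61 ± 0.07), Ddit3, the stress factor CHOP (1.59 ± 0.08), and Cebpg, a partner of ATF4 (0.76 ± 0.07), rose too. Over all symbols 17.0% rose and 15.6% fell, and among the brighter 50% of symbols 28.0% rose and 23.9% fell. Of the 20 genes of an amino acid response list 19 rose and 1 fell, with a median of 0.73. Of 16 genes of amino acid synthesis, which share Asns with that list, 13 rose and 1 fell, with a median of 0.64. Within the latter Cth, which makes cysteine, rose by 1.92 ± 0.10, Aldh1l2, a folate enzyme of mitochondria, by 1.67 ± 0.09 and Pycr1, which makes proline, by 1.55 ± 0.07. The core TGATGNAA stood in the promoter windows of 6 of 18 genes of the response list and 3 of 13 of the synthesis list. Asns is counted in both, and 4.51% of all genes with a window held the core.

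Of the eIF2 kinases, Eif2ak4, whose product GCN2 senses uncharged tRNA, differed by −0.01 log2 (95% interval −0.11 to 0.09) and Eif2ak3, which encodes PERK, by 0.01 (−0.10 to 0.11). Neither passed. Of the 15 genes of the eIF2 pathway list 7 rose and 1 fell, with a median of 0.12. Among the brighter 50% of symbols, which hold all 15, 28.0% rose and 23.9% fell. Impact, an inhibitor of GCN2 signalling, rose by 0.59 ± 0.05 (SE), and Eif2ak2, the kinase PKR, fell by 0.62 (limma adjusted p = 0.000134). These are mRNA levels, and phosphorylation of eIF2 was not measured.

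**Figure D4:**
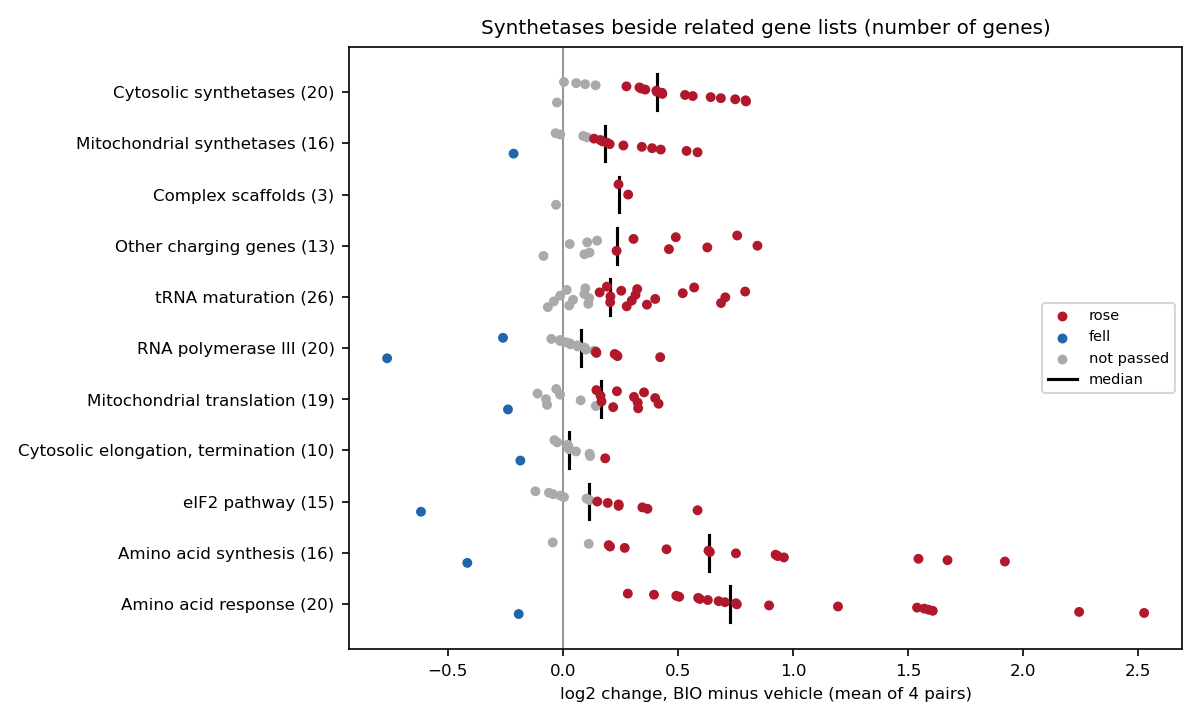
Mean log2 change over 4 pairs (x axis) of each gene in the synthetase groups and in 9 related lists, with medians as black bars and the number of genes in brackets. Medians run from 0.03 for cytosolic elongation and termination to 0.73 for the amino acid response list, with the cytosolic synthetases at 0.41 and the mitochondrial at 0.18.

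The cells bore the markers of their label in part. Of 8 adrenocortical markers 7 fell with BIO and Inha rose, where 15.6% of all symbols fell and 17.0% rose. Those that fell included Nr5a1, which encodes steroidogenic factor 1, at 9.30 ± 0.09 log2 in vehicle and 8.79 ± 0.08 in BIO (SD, n = 4). Hsd3b1, a steroid dehydrogenase gene, read only 5.68 ± 0.86 in vehicle, about the median of an array. The mean log2 level of the 8 markers lay between 8.74 and 9.27 on the vehicle arrays and between 8.00 and 8.35 on the BIO arrays, and their part in the synthetase changes was not tested. Markers of medulla (6 genes), endothelium, macrophages and fibroblasts (5 each) had array means between 4.39 and 4.97, under the lowest array median of 5.70. The group means of 2 genes stood above it, and both fell: the macrophage marker Cd68 (7.70 ± 0.13 in vehicle and 7.25 ± 0.11 in BIO, SD, n = 4) and the fibroblast collagen Col1a1 (6.18 ± 0.08 and 5.96 ± 0.04), and none of these markers rose. Array numbers in the labels run through BIO first and vehicle after, so array order and treatment cannot be told apart.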

How the data were processed

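The authors deposited log2 values from RMA on perfect-match probes, per the file headers, and oligo is named in the submitters' processing notes (version not given in the sources used here). They cover 28944 probe sets of Affymetrix Mouse Gene 1.1 ST array strips. They also deposited paired t-test p-values and fold ratios, per the file headers, which mention no adjustment. Both deposited tables held the same array values within 5.0e-09 log2. No detection calls or depth exist, and the number of arrays limits precision.

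One probe set per symbol (highest mean) was kept for 20719 symbols, and BIO was tested against vehicle with limma 3.58.1 (R 4.3.3, pair as a block, two-sided, Benjamini-Hochberg over all symbols, threshold 0.05). Pairing comes from the titles, and deviations of same-numbered arrays from group means correlated at 0.446, 0.578, 0.385 and 0.617. Arrays correlated at 0.995 to 0.999 within groups. No array duplicated another. The fit was tested on simulated data. Cytosolic and mitochondrial changes were compared by exact sign-flip tests.

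All 36 members may be named. From related lists up to 4 passing genes with the largest change, the scaffold and charging genes (some of the latter are counted but not reported here by name), and Atf4, Atf5, Cebpg, Ddit3, Eif2ak3 and Eif2ak4 were named, and other names were chosen after their values were seen. Members and lists were chosen with earlier results of these data known. Gene identifiers matched RefSeq (GRCm38.p6) for all 36 members, and its promoter windows for 27.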

Additional observations from a re-analysis of the deposited data

Results flagged for a closer look

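In 4 of 72 groups of 4 arrays, 1 array stood apart from the other 3 of its group by Dixon's criterion at 95%, and chance gives about 1 in 20. The ratio of gap to range was 0.833 for Cars on vehicle replicate 3 (9.53 log2 against 9.70 to 9.74) and 0.96 for Sars on BIO replicate 2 (11.59 against 11.546 to 11.548). It was 0.851 for Aars2 on BIO replicate 3 (7.15 against 7.21 to 7.22) and 0.872 for Pars2 on BIO replicate 2 (6.67 against 6.76 to 6.77).

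The authors' deposited table also covers another experiment, headed as 3 Wnt against 4 SF1 samples, whose arrays were not analysed here. In the authors' deposited table, an unadjusted p under 0.05 with a Wnt over SF1 ratio above 1 stood beside Eprs (ratio 1.57, p = 0.0357), Ears2 (1.30, p = 0.0360), Fars2 (1.40, p = 0.0269) and Nars2 (1.37, p = 0.0383), as it did for 6.77% of all symbols. In the authors' deposited table the ratio was above 1 for 15 of the 16 mitochondrial genes, with a median of 1.19, and for 12 of the 20 cytosolic genes, with a median of 1.03, against a median of 1.01 over all symbols.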

How the results depend on the processing

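Under 10 alternatives, 20 of the 26 members that rose kept their call throughout, 13 of 15 cytosolic and 7 of 11 mitochondrial. The exceptions were Nars (adjusted p = 0.0505 by the authors' paired test), Rars, Cars2, Lars2, Mars2 and Yars2. Mars2 lost its call in 8 alternatives. The count of cytosolic genes that rose was 13 to 15, and that of mitochondrial genes 8 to 11. The count of mitochondrial genes that fell was 0 to 1 when replicates were left out in turn, and 0 by the authors' paired test, which shares no spread across genes. Without the replicate block the counts of rises were 15 and 8. Unpaired, the cytosolic minus mitochondrial value of each BIO array lay above that of each vehicle array in 11 of the 17 comparisons. How many pairs of other genes would give such a gap was not counted. The signs that turned were those of Dars (−0.0115 to 0.0308 with replicates left out in turn, −0.00731 with cyclic loess normalization) and Hars2 (−0.0308 to 0.0101 with replicates left out in turn), neither of which passed. The medians ran from 0.39 to 0.41 log2 (cytosolic) and 0.15 to 0.20 (mitochondrial). With no detection calls, the signal over background of dim probe sets was not assessed.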

Other observations

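Of 10 genes of cytosolic elongation and termination, Eef1b2, an exchange factor subunit, rose by 0.18 ± 0.05 log2 (SE), Gspt1, a release factor, fell by 0.18 and 8 did not pass (limma adjusted p of 0.0189 and 0.0112 for the genes that passed). Of 19 genes of mitochondrial translation, all among the brighter 50% of symbols, 11 rose and 1 fell, with a median of 0.16. The largest rises were those of Trmu, which modifies mitochondrial tRNA (0.42 ± 0.06), and Mtif3, an initiation factor (0.40 ± 0.04). Of the brighter 50% of symbols, which also hold all 10 genes of elongation and termination, 28.0% rose and 23.9% fell.

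Of 20 genes of RNA polymerase III, which makes tRNA, 6 rose, 2 fell and 12 did not pass. All 20 lie in the brighter 50% of symbols, of which 28.0% rose, so the share of the list that rose (30.0%) is close to that background. Polr3c, a subunit, rose by 0.42 ± 0.04 log2 (SE). Maf1, the repressor of the polymerase, read 9.10, 9.03, 8.996 and 9.12 in vehicle and 8.27, 8.23, 8.32 and 8.37 in BIO, without overlap. Its change of −0.76 ± 0.05 (limma adjusted p = 1.4e-05) was close in size to the largest rise among the synthetases.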
